A study of Mus musculus with 6 samples.

Results

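The fibroblast growth factor (FGF) ligands and receptors of the lung were followed in RNA-Seq of isolated lung ECs (iLECs), the endothelial cells of the organ. The 10 genes were taken by symbol from the 24972 measured. They were the 5 ligands *Fgf1*, *Fgf2*, *Fgf7*, *Fgf10* and *Fgf18* and the 5 receptors *Fgfr1*, *Fgfr2*, *Fgfr3*, *Fgfr4* and *Fgfrl1*. Of the 10, 9 passed a filter on low values (10 or more normalized counts in 3 or more of the libraries), as did 14456 genes in all. *Fgf2* did not pass.

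The iLECs were taken at P7 from C57BL/6 pups, the strain the labels give, while the study's methods describe a mixed CD1 and C57BL/6 background. By their labels, the 3 control samples were *Atp6ap2* fl/Y without Cre, and the 3 *Atp6ap2* iECKO samples were fl/Y with *Cdh5*-CreERT2. Both groups therefore carried the floxed allele, and both received tamoxifen (100 µg) at P1, P2 and P3, so that the groups differed in Cre itself as well as in the deletion. The *Cdh5* promoter drives Cre in ECs, and lung cells were captured on beads coated with an antibody to CD31, a surface protein of ECs. *Atp6ap2*, on the X chromosome, encodes the prorenin receptor (PRR), an accessory subunit of the vacuolar proton pump. The study calls the 3 samples of a genotype biological replicates, and whether a sample came from 1 pup or from pooled lungs is not given in the sources used here.

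FGFs are secreted proteins that signal through receptor tyrosine kinases on neighbouring cells, with heparan sulfate chains as obligatory partners of most ligands. In the lung, FGF10 from the mesenchyme acts on FGFR2 of the epithelium and is required for airway branching, and FGF receptors 3 and 4 together are needed for the formation of alveolar septa after birth. FGF1 and FGF2 were first known as mitogens of ECs and fibroblasts.

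The ligand with the lowest *P* value, *Fgf10*, the receptor with the lowest, *Fgfr4*, and the ligand *Fgf7*, which missed the threshold, had the largest differences between genotypes. The bases just upstream of their annotated start sites are shown because these 3 genes were low in the same libraries. The 3 windows of 250 bases come from RefSeq (GRCm38.p6), read 5′ to 3′ on the strand of the gene, with 3 promoter motifs in capitals wherever either strand holds them. The motifs searched were the TATA box TATAAA, the CCAAT box and the GC box GGGCGG, with no overlap between matches in the windows shown, and on the opposite strand the GC box reads CCGCCC. The window of *Fgf10* is chr13:118714449-118714698 (plus strand), that of *Fgf7* is chr2:126034408-126034657 (plus strand), and that of *Fgfr4* is chr13:55152568-55152817 (plus strand).
Fgf10: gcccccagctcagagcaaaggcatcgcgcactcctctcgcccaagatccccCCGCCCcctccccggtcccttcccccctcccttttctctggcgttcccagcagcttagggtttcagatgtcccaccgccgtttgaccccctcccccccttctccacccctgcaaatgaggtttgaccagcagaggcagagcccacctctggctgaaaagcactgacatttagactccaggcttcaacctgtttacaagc
Fgf7: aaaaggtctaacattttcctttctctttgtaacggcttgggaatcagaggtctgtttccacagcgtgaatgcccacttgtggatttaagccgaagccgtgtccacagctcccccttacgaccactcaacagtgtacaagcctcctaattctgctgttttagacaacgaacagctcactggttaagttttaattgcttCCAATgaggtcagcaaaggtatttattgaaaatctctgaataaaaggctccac
Fgfr4: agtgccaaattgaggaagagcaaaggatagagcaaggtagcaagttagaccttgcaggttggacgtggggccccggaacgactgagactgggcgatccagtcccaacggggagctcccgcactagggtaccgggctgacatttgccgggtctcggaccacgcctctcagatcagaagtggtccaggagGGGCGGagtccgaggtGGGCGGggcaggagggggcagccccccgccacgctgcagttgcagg

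The 3 upstream windows had little in common in these letters. That of *Fgf10* (61.2% G or C) held 1 GC box, on the opposite strand and 199 bases before the start. That of *Fgf7* (43.6% G or C) held 1 CCAAT, 53 bases before the start. That of *Fgfr4* (64% G or C) held 2 GC boxes, starting 62 and 46 bases before the start. No TATAAA stood in any window of the 8 members that had one in the RefSeq table, among them these 3, against 12.4% of 32851 mouse promoters. *Fgfr3* had 2 windows, so the 8 members had 9. A CCAAT was held by 3 of the 9 windows (33.8% of all promoters) and a GC box by 7 of the 9 (32.7%). The median share of G or C was 64% in the member windows and 52.4% in all promoters, and GC boxes are made of these letters alone. These matches are descriptions of letters and not measurements of binding.

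The targeted gene was measured first. *Atp6ap2* stood at 7490, 5815 and 5681 (normalized count) in control replicates 1, 2 and 3, and at 4220, 2336 and 1982 in those of *Atp6ap2* iECKO. It fell by 1.22 on the log2 scale (SE 0.26, adjusted *P* = 0.0306, limma), and replicate 1 of the iECKO libraries kept the most transcript. With 1 library left out its adjusted *P* stayed below 0.05 only without iECKO replicate 1 (0.00595) and was 0.0628 to 0.104 without each of the others. The sums of the normalized counts per library were 26359661 to 28725799 in controls and 26243878 to 27221581 in iECKO. They come after scaling, which brings libraries close to one another, and are not numbers of reads. By the step between low values, the iECKO libraries were sequenced 1.25 to 1.55 times as deeply as the shallowest control. The controls were at 1.00 to 1.04 times. *Xist*, the RNA of the inactive X chromosome of female cells, was high in 4 libraries, 2 of each genotype (37704 and 44402 in control replicates 1 and 2, 39442 and 47487 in iECKO replicates 1 and 3). It was at 31.7 in control replicate 3 and at 19.3 in iECKO replicate 2, although all 6 labels give fl/Y. The study used neonates of both sexes, so the labelled genotype of the 4 libraries with high *Xist* is in doubt. A list of 16 endothelial markers had a summed normalized count of 402684 to 524436 in controls and 399468 to 471308 in iECKO. This sum shows that endothelial RNA was present and cannot show how pure the cells were. The study judged purity by immunoblot. There VE-cadherin was found only in iLECs, and αSMA and desmin were found in the non-EC fraction. RNA of markers of other cell types was present too. Control means were 12977 for the fibroblast gene *Col1a1*, 22765 for the epithelial gene *Sftpc* and 1205 for *Acta2*, which encodes αSMA.

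Of the 9 members tested, *Fgf10* and *Fgfr4* fell and none rose at an adjusted *P* below 0.05. Over all genes tested, 4.97% fell and 3.28% rose. In 5 of the 9, namely *Fgf7*, *Fgf10*, *Fgfr1*, *Fgfr4* and *Fgfrl1*, every iECKO library lay below every control library, as in 15% of all genes tested, and in none did every iECKO library lie above, as in 14.7% of all genes. The 4 ligands tested had a median log2 fold change of -1.12 and the 5 receptors one of -0.38, beside 0.0049 for all 14456 genes. The unadjusted *P* value was below 0.05 in 5 of the 9 members, all with lower means in iECKO, and in 23.9% of all genes. These are bulk samples, in which fewer cells of a type and less RNA per cell cannot be told apart.

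**Figure D1:**
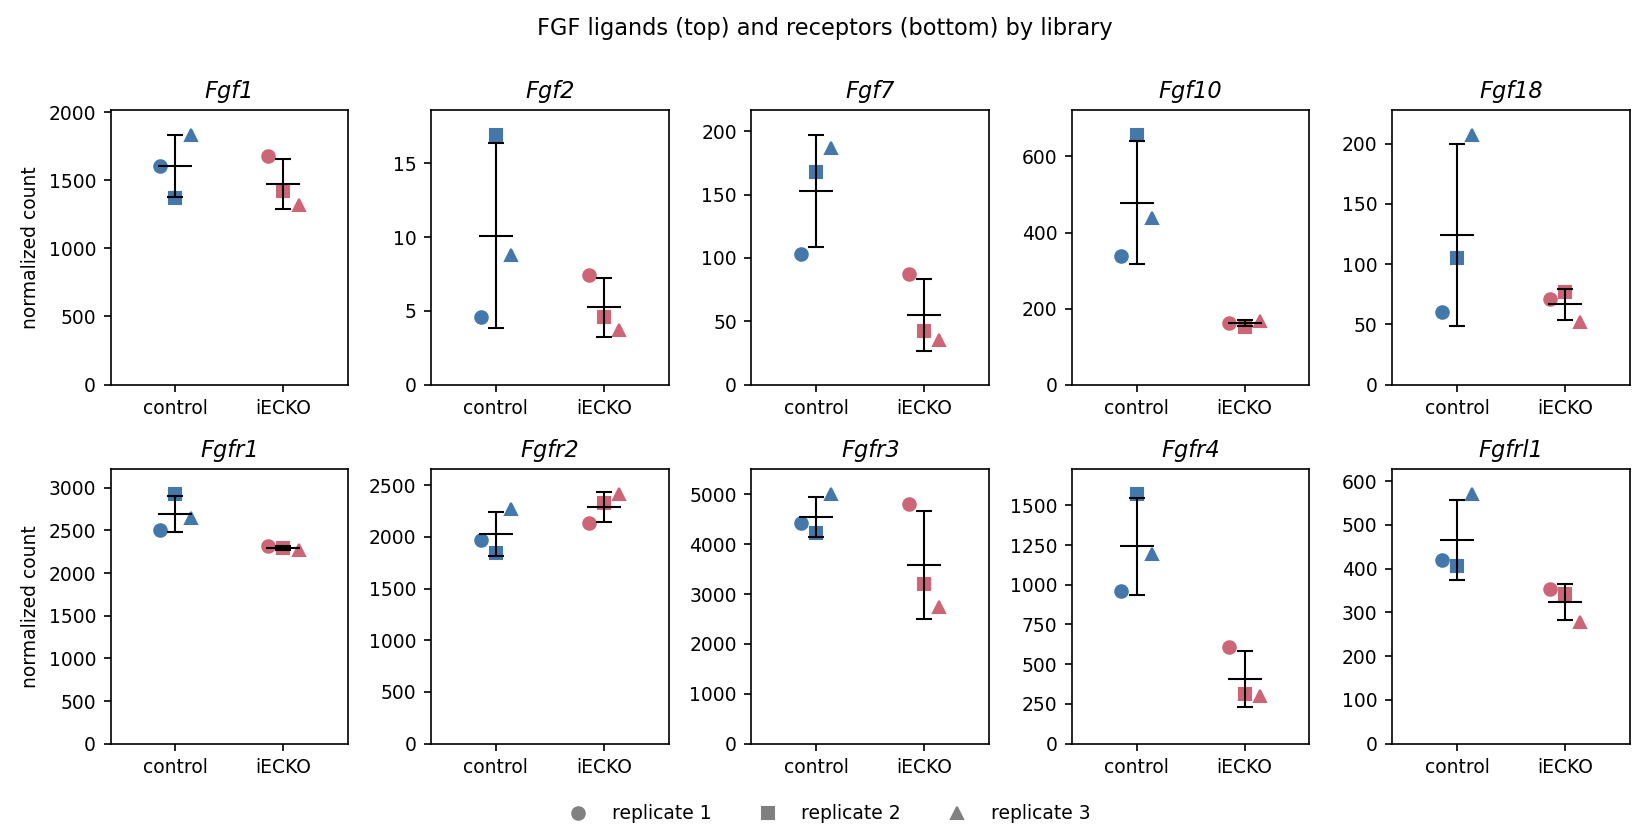
Normalized count (vertical axis, from 0) of each FGF ligand (top row) and receptor (bottom row) in 3 control (blue) and 3 *Atp6ap2* iECKO (red) libraries, with the marker shape giving the replicate, a long bar the mean and whiskers the SD. The iECKO libraries of *Fgf10* lay between 152 and 169, all below the lowest control at 339.5, whereas the iECKO and control libraries of *Fgf1* and *Fgf18* overlapped.

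*Fgf10* (chr13:118714699-118792573, plus strand) encodes the mesenchymal ligand of epithelial FGFR2. Its normalized counts were 339.5, 656 and 439.5 in control replicates 1 to 3 and 162.5, 152.4 and 168.5 in iECKO replicates 1 to 3. All 3 iECKO libraries were low and close to one another, and the controls spread more widely around a higher mean (478 ± 162 against 161 ± 8.15, SD, n = 3). *Fgf10* fell by 1.51 on the log2 scale (SE 0.23, 95% interval -2.05 to -0.97), that is, it was 2.85-fold lower in iECKO (adjusted *P* = 0.0133). It ranked 216 among the 14456 genes by *P* value. The annotation holds an antisense gene, *Gm16263*, that shares 123 exon bases with it, and its reads cannot be told apart here. Its adjusted *P* was 0.0507 without control replicate 3 and 0.0521 without iECKO replicate 3, with log2 fold changes between -1.73 and -1.26 over the 6 libraries left out in turn.

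*Fgf7* (chr2:126034658-126091185, plus strand), the keratinocyte growth factor, is likewise a mesenchymal ligand of the epithelial form of FGFR2. Its normalized counts were 102.7, 168 and 187 in the controls and 87.6, 42.2 and 35.3 in iECKO. The groups did not overlap, but iECKO replicate 1 came close to control replicate 1, and the other 2 iECKO libraries were well below (152.6 ± 44.3 against 55.0 ± 28.4, SD, n = 3). The log2 fold change was -1.52 (SE 0.39, 95% interval -2.42 to -0.62), as large as that of *Fgf10* but with a wider error, and the adjusted *P* was 0.0527. Without iECKO replicate 1 it was -1.91 with an adjusted *P* of 0.0230. The iECKO values corresponded to only 18.9 to 46.8 steps of about 1 read.

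*Fgf18* (chr11:33116970-33147400, minus strand), a ligand of the mesenchymal receptors with a part in alveolar growth, did not separate the genotypes. It stood at 60.1, 105.4 and 206.9 in the controls and at 70.9, 77.1 and 52.2 in iECKO. Control replicate 3 was far above all other libraries and control replicate 1 below 2 of the iECKO libraries. The log2 fold change was -0.73 (SE 0.43, 95% interval -1.72 to 0.27, adjusted *P* = 0.359). It was -0.27 without control replicate 3 and -1.15 without control replicate 1, and no library left out gave a call. Control replicate 3 was also the library with the highest sum of epithelial markers (79244, against 31300 to 45728 in the other 5), and the part of this in the *Fgf18* value was not tested.

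*Fgf1*, the acidic FGF, which binds all the signalling FGF receptors (chr18:38838672-38929470, minus strand), had the highest level per kilobase of the ligands. It stood at 1604, 1372 and 1829 in the controls and at 1675, 1420 and 1321 in iECKO. The groups overlapped. The log2 fold change was -0.12 (SE 0.13, 95% interval -0.42 to 0.19, adjusted *P* = 0.644), an interval that leaves out a change as large as that of *Fgf10*.

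*Fgf2* (chr3:37348477-37410106, plus strand), the basic FGF, was at the edge of detection. Its normalized counts were 4.61, 16.9 and 8.80 in the controls and 7.46, 4.56 and 3.69 in iECKO, which correspond to 2 to 7 steps of about 1 read. The groups overlapped. With no filter on low values its log2 fold change was -0.72 (SE 0.58, adjusted *P* = 0.561). *Fgf2* shares 640 exon bases with *Nudt6* on the opposite strand (normalized counts of 32.4 to 67.4), and the library kit does not keep strand, so that reads from the shared bases cannot be told apart.

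**Figure D2:**
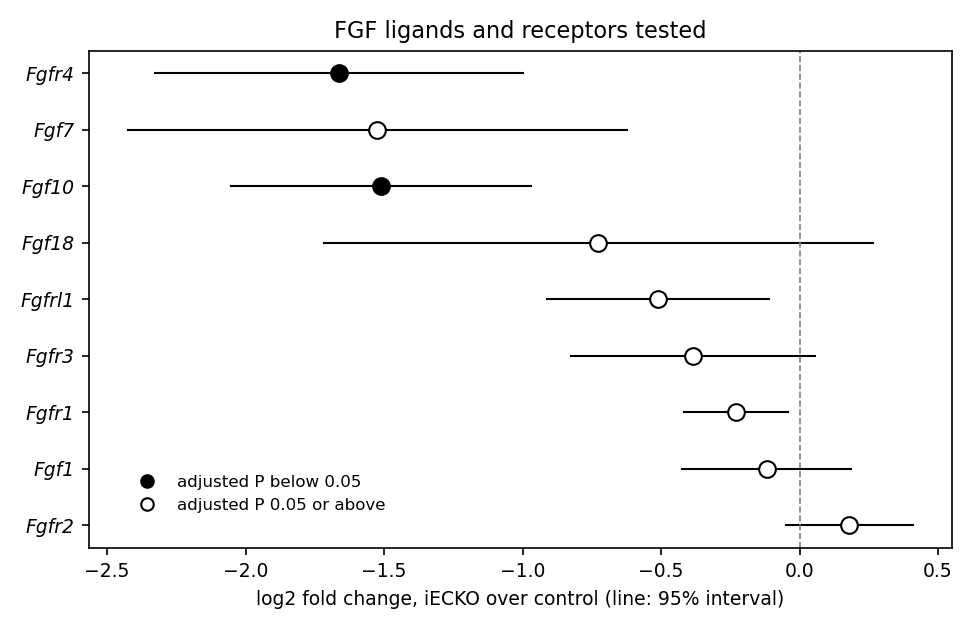
Log2 fold change, iECKO over control (horizontal axis), of the 9 FGF genes tested, with a line for the 95% interval, and filled points for an adjusted *P* below 0.05. *Fgfr4* (-1.66) and *Fgf10* (-1.51) are filled, *Fgf7* (-1.52) is open with a wider interval, and *Fgfr2* (0.18) is the only point to the right of 0.

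Among the receptors, *Fgfr4* (chr13:55152818-55168759, plus strand), a tyrosine kinase receptor best known for its work with FGF19-type ligands in the liver, differed the most. Its normalized counts were 962, 1569 and 1196 in the controls and 607, 309.5 and 301 in iECKO. Every iECKO library lay below every control, and iECKO replicate 1 was the highest of the 3 (1242 ± 306 against 406 ± 174, SD, n = 3). *Fgfr4* fell by 1.66 on the log2 scale (SE 0.29, 95% interval -2.33 to -0.997), a 3.17-fold lower level in iECKO (adjusted *P* = 0.0174). The log2 fold change ranged from -1.99 to -1.48 over the 6 libraries left out in turn, and the adjusted *P* was 0.0649 without control replicate 3, 0.0617 without iECKO replicate 2 and 0.0671 without iECKO replicate 3. With no mean-variance trend it was 0.0645.

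*Fgfr3* (chr5:33721724-33737068, plus strand), the receptor tyrosine kinase of the growth plate and a partner of *Fgfr4* in alveolar development, stood at 4433, 4217 and 5000 in the controls and at 4796, 3203 and 2732 in iECKO. One iECKO library, replicate 1, lay within the controls and the other 2 below them. The log2 fold change was -0.38 (SE 0.19, 95% interval -0.82 to 0.05, adjusted *P* = 0.269). Without iECKO replicate 1 it was -0.62 with an adjusted *P* of 0.0273, and without iECKO replicate 3 it was -0.21 (0.623). No other library left out gave a call. *Fgfr3* shares 998 exon bases with the antisense gene *G630022F23Rik*, whose reads cannot be told apart either.

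*Fgfr1* (chr8:25518759-25575718, plus strand), the main receptor of mesenchymal cells, stood at 2507, 2922 and 2647 in the controls and at 2312, 2295 and 2266 in iECKO. The groups did not overlap and the iECKO libraries were nearly equal, yet the difference was small (log2 fold change -0.23, SE 0.08, 95% interval -0.42 to -0.04, adjusted *P* = 0.134). *Fgfr2* (chr7:130162451-130266808, minus strand), whose epithelial splice form binds FGF7 and FGF10, was the only member with a higher mean in iECKO. It stood at 1970, 1849 and 2267 in the controls and at 2132, 2333 and 2413 in iECKO, with overlapping groups (log2 fold change 0.18, SE 0.10, 95% interval -0.05 to 0.41, adjusted *P* = 0.326). The table gives 1 value per gene, so its splice forms were not separated. Its annotated exons share 314 bases with *Ctbp2* on the same strand (normalized counts of 2280 to 3385). The part of the shared bases in the *Fgfr2* value was not tested.

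*Fgfrl1* (chr5:108694229-108706950, plus strand), which binds FGFs but lacks the tyrosine kinase domain, stood at 420, 406 and 569.8 in the controls and at 352, 342 and 277 in iECKO. Every iECKO library lay below every control, by a margin smaller than the spread of the controls. The log2 fold change was -0.51 (SE 0.17, 95% interval -0.91 to -0.11, adjusted *P* = 0.120). For each of the 5 members without overlap, the exact permutation test over libraries gave a two-sided *P* of 0.1, the smallest that 3 against 3 allows. Groups without overlap always give this value, so the test adds nothing to that description.

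Divided by the length of the principal transcript in GENCODE M21, the control levels covered a wide range. *Fgfr3* was highest at 1072 ± 95.3 normalized counts per kilobase (SD, n = 3), followed by *Fgfr2* (610 ± 64.8), *Fgfr1* (536 ± 42.0), *Fgf1* (402 ± 57.4), *Fgfr4* (374 ± 92.0) and *Fgfrl1* (199.8 ± 39.0). The other ligands came last, with *Fgf10* at 116 ± 39.3, *Fgf18* at 114 ± 69.2, *Fgf7* at 57.1 ± 16.6 and *Fgf2* at 1.69 ± 1.05. Between neighbours in this order, *Fgfr2* and *Fgfr1*, *Fgf1* and *Fgfr4*, *Fgf10* and *Fgf18*, and *Fgf18* and *Fgf7* had overlapping control values. With all annotated exons as the length, *Fgfr3* stayed first and *Fgf2* last, but *Fgfr4* (351) came before *Fgf1* (293), *Fgfr1* (273) and *Fgfr2* (196), so that the order of these 4 rests on the choice of length.

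**Figure D3:**
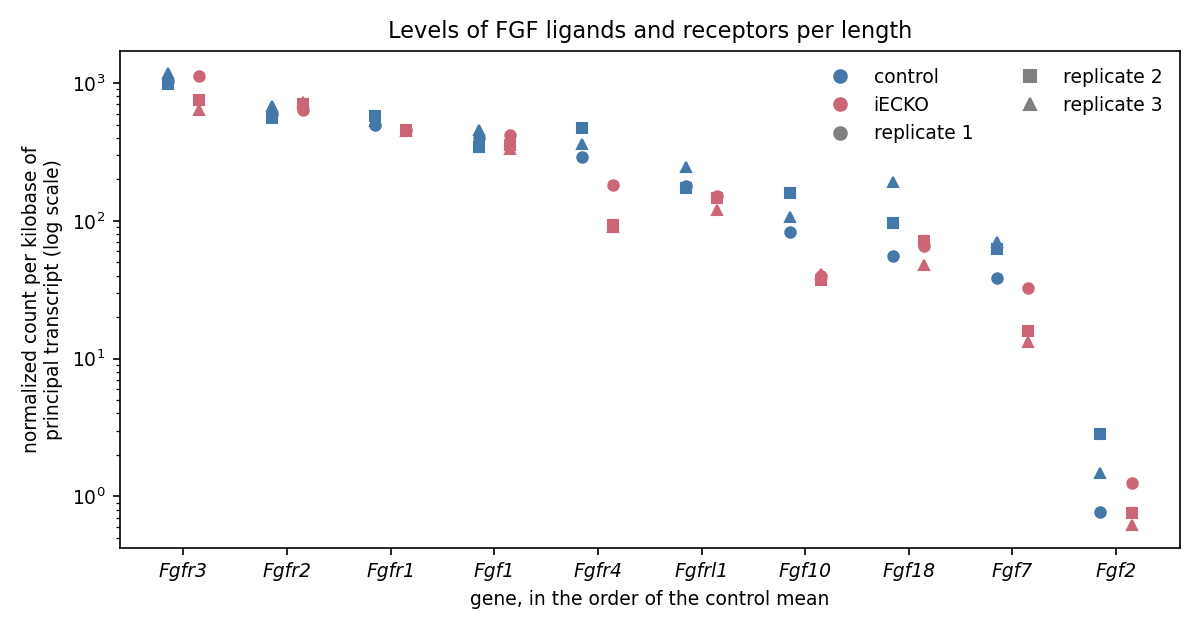
Normalized count per kilobase of principal transcript (log scale) for the 10 FGF genes in the order of their control mean, in control (blue) and *Atp6ap2* iECKO (red) libraries, 1 point per library. *Fgfr3* is first (control mean 1072) and *Fgf2* last (1.69), and the red points of *Fgfr4* and *Fgf10* lie below all their blue points.

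The make-up of the receptor transcripts was read from the same per-kilobase levels as shares of the sum over the 5 receptors in each library. The share of *Fgfr4* was 11.1% to 17.0% in controls and 4.32% to 7.12% in iECKO, without overlap. That of *Fgfr2* was 20.0% to 22.8% in controls and 25.0% to 35.8% in iECKO, also without overlap. The shares of *Fgfr1* (17.6% to 20.9% and 17.9% to 22.2%), *Fgfr3* (35.8% to 40.1% and 31.7% to 44.0%) and *Fgfrl1* (6.28% to 8.18% and 5.86% to 6.82%) overlapped between genotypes. With all exons as the length, *Fgfr4* again took 18.3% to 26.8% in controls and 7.83% to 12.2% in iECKO, and *Fgfr2* 10.8% to 12.8% and 14.7% to 22.7%. Shares of a sum depend on one another, and these were not tested.

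Markers of other cell types differed in the same libraries. Of the 16 fibroblast markers 14 were tested, 10 fell and none rose (median log2 fold change -1.48), and the summed normalized count of the list was 80263 to 126173 in controls and 27898 to 40059 in iECKO. Its defining genes *Col1a1* (-1.62, adjusted *P* = 0.0106), the main chain of type I collagen, and *Pdgfra* (-1.35, 0.0153), a receptor of lung fibroblasts, both fell. Of the same list, and named after their values were seen, *Pi16* (1.12, adjusted *P* = 0.0902, no overlap) and *Mfap5* (0.55, 0.313) had higher means in iECKO, as did *Scara5* (3.03 and 10.2), which was not tested. Of 14 mural and smooth muscle markers, 10 fell and none rose (median -1.53, sums of 23856 to 33005 and 12901 to 14657), with *Pdgfrb* at -1.54 (0.00831) and *Acta2* at -1.45 (0.0504). No marker of any list was at 0 in all libraries.

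In the iECKO replicates 1, 2 and 3, the log2 ratio to the control mean was -1.50, -1.59 and -1.45 for *Fgf10*, -0.75, -1.79 and -2.04 for *Fgf7*, and -1.003, -1.97 and -2.01 for *Fgfr4*. The median of the fibroblast markers was -1.36, -1.63 and -1.67 in the same libraries, and that of the mural markers -1.39, -1.54 and -1.73. The ratios of *Fgf10* thus lay within those of both marker medians over the 3 iECKO libraries, and those of *Fgf7* and *Fgfr4* spread beyond them on both sides. The part of those cells in the lower levels of *Fgf10*, *Fgf7* and *Fgfr4* was not tested.

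The marker lists of the remaining types had medians nearer to 0. Of 16 endothelial markers 1 fell (*Tek*, -0.53, adjusted *P* = 0.0292) and none rose (median 0.02). Besides *Tek*, the groups did not overlap for *Ptprb*, lower in iECKO (-0.68, 0.0527), and for *Emcn* (0.27, 0.193) and *Egfl7* (0.18, 0.254), higher in iECKO. Their defining genes overlapped, with *Pecam1* at 0.12 (0.599) and *Cdh5* at 0.07 (0.853). Of 15 epithelial markers none fell and 1 rose (*Scgb1a1*, 1.75, adjusted *P* = 0.0408; named, like *Tek*, *Ptprb*, *Emcn* and *Egfl7*, after its value was seen), with *Epcam* at -0.23 (0.780) and *Sftpc* at -0.14 (0.857). Of 14 leukocyte markers none passed, and none had an unadjusted *P* below 0.05, beside 23.9% of all genes (*Ptprc* at 0.36, adjusted *P* = 0.650). Their sums were 31300 to 79244 and 38150 to 45728 for the epithelial and 7380 to 13548 and 5851 to 17274 for the leukocyte markers, in controls and iECKO.

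**Figure D4:**
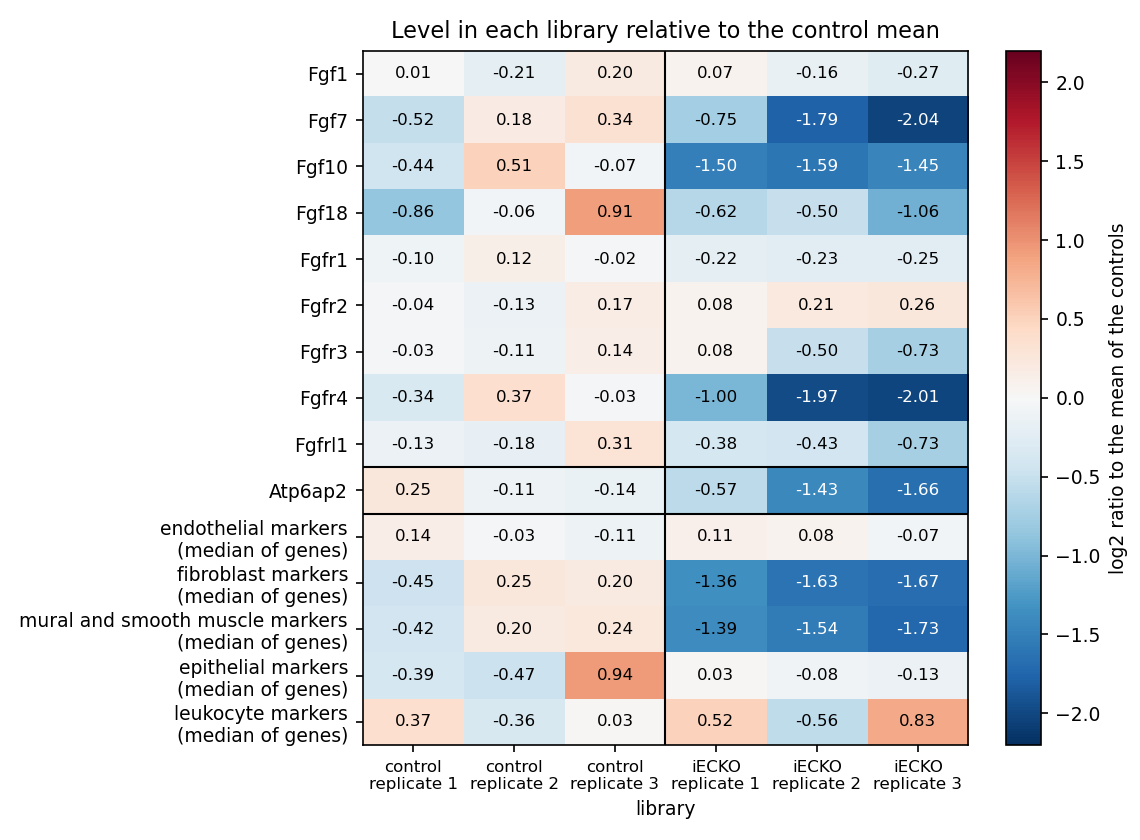
Log2 ratio of each of the 6 libraries (columns) to the mean of the controls for the 9 tested FGF genes, for *Atp6ap2* and for the median of 5 lists of cell type markers (rows), printed in each cell and coloured from blue (lower) to red (higher). *Fgf10* (-1.59 to -1.45 in iECKO) sits at values like those of the fibroblast markers (-1.67 to -1.36), and the endothelial markers stay near 0.

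Within libraries alike in *Xist*, the direction held for the members with the largest differences. *Fgf10* differed by -1.51 (log2, iECKO minus control) among the 4 libraries with high *Xist* and by -1.52 between the 2 with low *Xist*. The values were -1.52 and -1.95 for *Fgfr4*, -1.22 and -2.12 for *Fgf7*, and -0.38 and -1.41 for *Fgf18*. *Fgf1* differed by 0.00 and -0.37, so that its small mean difference rested on the 2 libraries with low *Xist*. Those have no replicates, and these differences were not tested.

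The genes whose pattern over the 6 libraries was most like that of *Fgf10* were *Mdk* (midkine, a heparin-binding growth factor), *Bmp5* (a bone morphogenetic protein) and *Tnc* (tenascin C, a matrix glycoprotein). Their Euclidean distances to it, over log2 ratios to the control mean and among 11321 genes with a mean normalized count of at least 100, were 0.226, 0.234 and 0.244. Their own log2 fold changes were -1.42, -1.52 and -1.61 (adjusted *P* = 0.0103, 0.00831 and 0.00731). For *Fgfr4* the nearest were *Spon1* (spondin 1, a matrix protein), *Serping1* (the C1 inhibitor of complement) and *Mdga1* (a membrane-anchored adhesion protein), at 0.309, 0.366 and 0.370. Their log2 fold changes were -1.64, -1.60 and -1.59 (adjusted *P* = 0.00848, 0.00883 and 0.0121). Likeness of pattern is a description of these 6 libraries. The distance includes the genotype difference, so the fold changes and *P* values of these genes follow from how they were picked.

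The further genes of the pathway were read from 6 lists, 103 genes in all, of which 101 were in the table and 81 were tested. Of the 81, 10 (12.3%) fell and 2 (2.47%) rose, against the 4.97% and 3.28% of all genes, with a median log2 fold change of -0.11. The 10 include *Hs3st3a1*, which passed the filter through the controls alone, where it was high, and whose call carries no weight. Of 17 other FGF family genes only 4 passed the filter and 6 were listed at 0 in all libraries. None of the 4 passed the test, and the one with the lowest *P* value was *Fgf11* (-0.66, adjusted *P* = 0.149), an FGF homologous factor that stays inside the cell. The unadjusted *P* was below 0.05 for 2 of the 4, beside 23.9% of all genes.

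Heparan sulfate proteoglycans, whose sugar chains hold FGFs at the cell surface and in the matrix, had 4 of 12 members tested that fell and none that rose (median -0.38). *Sdc2*, a syndecan, stood at 1567, 2227 and 2250 in controls and at 701, 639 and 635 in iECKO and fell by 1.59 (SE 0.15, adjusted *P* = 0.00567). The glypicans *Gpc3* (-1.50, 0.0133), *Gpc4* (-1.30, 0.0167) and *Gpc1* (-1.34, 0.0301) fell as well, each without overlap between the groups. *Hspg2*, the basement membrane proteoglycan perlecan, was higher in every iECKO library than in any control but did not pass (16605 ± 2962 to 23584 ± 2709, SD, n = 3, log2 fold change 0.51, adjusted *P* = 0.0721). *Gpc1* and *Hspg2* were named after their values were seen. Co-receptors and binding proteins had 2 of 9 members that fell and none that rose (median -0.40). They were *Cdh2* (-1.50, adjusted *P* = 0.00570), the N-cadherin that binds FGFR1, and *Cd44* (-0.50, 0.0475), a hyaluronan receptor, and the next by *P* value was *Flrt3* (-0.55, 0.167). The log2 fold changes of *Sdc2*, *Gpc3* and *Cdh2* were close to the median of the fibroblast (-1.48) and mural (-1.53) markers, whose part in them was not tested.

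Of 19 enzymes that build or trim heparan sulfate, 1 rose and 1 fell (median -0.10). *Sulf2*, an extracellular sulfatase that removes 6-O-sulfate, went from 350, 301 and 249.5 in controls to 754, 599.6 and 674 in iECKO, a log2 fold change of 1.18 (SE 0.16, adjusted *P* = 0.0103). All 3 iECKO libraries were high and clear of the controls. *Hs3st3a1*, a 3-O-sulfotransferase, had the largest log2 difference of the list at low levels (-2.06, 39.5 ± 9.41 in controls and 8.76 ± 2.76 in iECKO, SD, n = 3, adjusted *P* = 0.0254). It passed the filter through the controls alone, where it was high, so its call carries no weight, and with 10 or more required in all 6 libraries it was not tested and 9 pathway genes fell. By *P* value the chain polymerase gene *Ext1* was next (-0.27, 0.0819).

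Inside the cell, none of 22 receptor adaptors and core ERK pathway genes passed the test in limma (median -0.04). The unadjusted *P* was below 0.05 for 3 of the 22, beside 23.9% of all genes. The lowest *P* value was that of the docking protein gene *Gab1* (-0.31, adjusted *P* = 0.133). Of 15 feedback and target genes 3 fell and 1 rose (median -0.07), and the unadjusted *P* was below 0.05 for 8 of the 15. *Etv1*, an ETS transcription factor, stood at 604, 953 and 904 in controls and at 358, 338.5 and 318 in iECKO and fell by 1.25 (SE 0.18, adjusted *P* = 0.0109). *Dusp6* (-0.59, 0.0200), the ERK phosphatase, and *Il17rd* (-0.48, 0.0274), an inhibitor of FGF signalling also called Sef and named after its value was seen, fell less. *Ccnd1*, a cyclin that drives entry into the cell cycle, rose from 9341, 10780 and 8296 to 13955, 18526 and 19078 (0.85, 0.0170).

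Of the genes of the last list that passed, *Etv1*, *Dusp6* and *Il17rd* thus fell and only *Ccnd1* rose. Other FGF targets, named after their values were seen, did not pass, with *Etv4* at 0.96 (adjusted *P* = 0.109), *Etv5* at 0.00 (0.994), *Spry1* at -0.32 (0.0562), *Spry2* at -0.35 (0.0619) and *Spry4* at -0.36 (0.348). The last 3 encode Sprouty proteins, which restrain receptor tyrosine kinase signalling. The groups did not overlap for *Spry1* and *Spry2*, lower in iECKO, nor for *Etv4*, higher in iECKO.

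**Figure D5:**
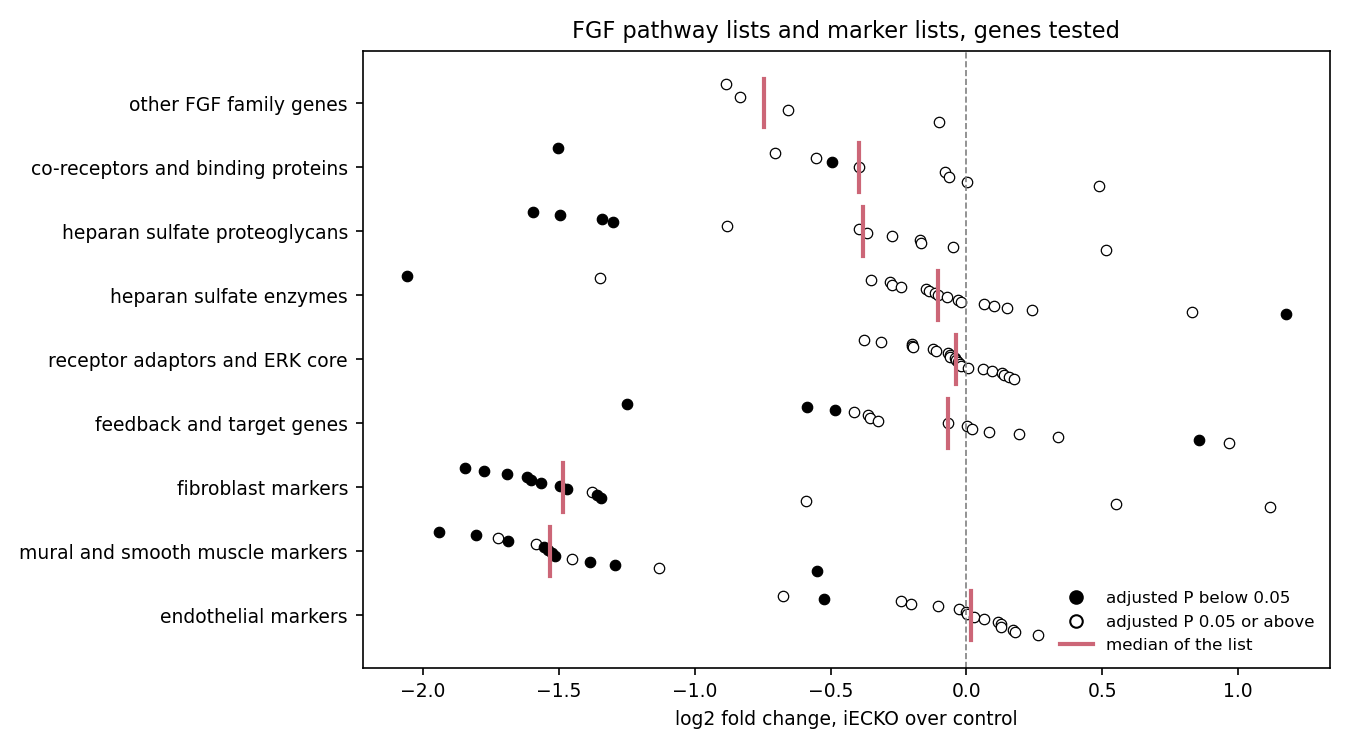
Log2 fold change, iECKO over control (horizontal axis), of each gene tested in 6 FGF pathway lists and 3 marker lists, filled where the adjusted *P* was below 0.05, with a red bar at the median of the list. The heparan sulfate proteoglycans hold 4 filled points between -1.59 and -1.30, the receptor adaptors and ERK core hold none, and the fibroblast and mural marker medians lie at -1.48 and -1.53.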

How the data were processed

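RNA-Seq libraries of iLECs were made with the TruSeq RNA v2 kit, which does not keep strand, aligned to mm10 and quantified with the BaseSpace tools. The authors deposited 1 normalized signal per gene and library, called raw counts in the labels and normalized counts here. The values are not whole numbers, and only 53.6% to 72.5% were whole multiples (within 0.05) of a library's step, so reads were not recovered and no count model was used. Depth was read from the steps only.

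The log2 of the normalized count plus 1 was fitted with limma 3.58.1 (R 4.3.3, mean-variance trend, no covariate) for genes at 10 or more in at least 3 libraries, with Benjamini-Hochberg adjustment over all 14456 and a threshold of 0.05. Fold changes on this scale understate those of low genes. The fit was also run on simulated data with noise drawn separately for each gene, a setting that leaves out variation shared between genes. With 3 libraries per genotype, *P* values rest on the spread between these samples, moderated toward a trend of variance on level over all genes tested. They therefore do not measure the spread of 1 gene alone. All members were named, and from each pathway list the 3 genes with the lowest *P* values, or 1 where none passed, while genes named outside this rule are said to be chosen after their values were seen. Members and lists were chosen with earlier results of these data known. The alternatives were scaling, filters, pseudocounts, a replicate block, *Xist* as a covariate, no trend, robust moderation and each library left out. Coordinates and promoters come from RefSeq (GRCm38.p6) and transcript lengths from GENCODE M21. 2 list genes had no row and were not analysed here, nor were 2 promoters.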

Additional observations from a re-analysis of the deposited data

How the results depend on the processing

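The count of FGF ligands and receptors that fell was 2, with none that rose under any of the 17 alternatives. It was 1 with no mean-variance trend (*Fgf10*) and 0 to 4 when each library was left out, with 0 without control replicate 3 or iECKO replicate 3, 1 without iECKO replicate 2 and 4 without iECKO replicate 1 (*Fgf7*, *Fgf10*, *Fgfr3* and *Fgfr4*). *Fgf7* also passed with a filter of at least 10 in all 6 libraries (adjusted *P* = 0.0461), a pseudocount of 10 (0.0490) and robust moderation (0.0476), and over all alternatives its adjusted *P* ranged from 0.0230 to 0.169. Over all alternatives, the adjusted *P* of *Fgf10* ranged from 0.00684 to 0.0521 and that of *Fgfr4* from 0.00622 to 0.0671. No member changed sign. Of the pathway genes, 10 fell and 2 rose, and these counts were 4 and 1 with no trend, 3 to 9 and 1 to 3 with a library left out (3 fell without control replicate 3 or iECKO replicate 3, and 5 without iECKO replicate 2), and 4 rose with a replicate block. *Atp6ap2* stayed lower, but its log2 fold change lost the threshold with no trend (-1.22, adjusted *P* = 0.0917), and with a library left out it ranged from -1.54 to -0.999 and passed in 1 of 6. Over all genes, 1193 passed, against 304 with no trend, 767 with *Xist* as a covariate, 268 without control replicate 3, 248 without iECKO replicate 2 and 204 without iECKO replicate 3. The cause of these changes was not tested. The labels number the libraries 1 to 3 in both genotypes. The deviations of same-numbered libraries correlated by 0.25, 0.11 and 0.08, and those of differently numbered libraries by -0.21 to 0.10. The study's statistics are unpaired, and the numbers were not taken as pairs in the main fit. Whether they mark pairs was not settled by these correlations. With the replicate block 2 members fell, as without it, and 1508 genes passed in all. Other scalings moved the median log2 fold change of all genes to at most 0.045. The number of reads is unknown, and differences in *Fgf2* were not detectable at this depth.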
